A study of Mus musculus with 99 samples.

Results

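The BXD strains of the series were divided by the heart level of H2-Ea, the transcript of the E-alpha chain of the mouse major histocompatibility complex (MHC), and the 2 resulting classes were compared. BXD strains are recombinant inbred mice, each a homozygous mosaic of C57BL/6J and DBA/2J. The 30 BXD arrays, of 99 arrays in the series, stood for 29 strains after the BXD24 pair had been averaged. Strains with H2-Ea above 5.83 log2 units formed the DBA/2J-like class (18 strains, 19 arrays), and the other 11 strains formed the C57BL/6J-like class. The classes were thus selected on measured H2-Ea values, so those values are a description and no test of it was made.

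All mice were male and on a chow diet, with no treatment and an age of 16 weeks in the protocol. Each array also has an age label, which conflicts with this and was not used. It rises with the title number, from 16 to 113 weeks over the series. Each array held heart RNA from 1 strain, so the p-values below measure the spread between strains, part of which may be technical. The C57BL/6J-like class was BXD2, BXD8, BXD13, BXD14, BXD15, BXD19, BXD20, BXD27, BXD39 and BXD42, all labelled TyJ, and BXD29-Tlr4<lps-2J>/J, which carries a mutant allele of the endotoxin receptor gene Tlr4. The DBA/2J-like class was BXD1, BXD5, BXD6, BXD9, BXD11, BXD12, BXD16, BXD18, BXD21, BXD24, BXD28, BXD31, BXD32, BXD33, BXD34, BXD36, BXD38 and BXD40, likewise TyJ. One of the BXD24 arrays was from BXD24/TyJ-Cep290<rd16>/J, which carries a mutant allele of the ciliary gene Cep290. The parental strains C57BL/6J and DBA/2J had 1 array each and took no part in the split or in the fit.

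MHC class II molecules present peptides from the extracellular space to CD4+ T cells, and in the heart they are carried mainly by resident macrophages and dendritic cells. Each is a pair of an alpha and a beta chain: H2-Aa with H2-Ab1 for I-A, and H2-Ea with H2-Eb1 for I-E. Mice of the b haplotype, C57BL/6J among them, have a deletion at the start of H2-Ea and make no E-alpha chain, and RefSeq lists their gene as a transcribed pseudogene. DBA/2J has the d haplotype, with an intact gene. The MHC lies on chromosome 17, where class I, class II and class III genes lie close together, and strains inherit long stretches of it together.

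The H2-Ea probe set used for the split read 3.21 on the C57BL/6J array and 8.44 on the DBA/2J array. In the C57BL/6J-like class it lay between 3.26 and 5.40, with a median of 3.35. In the DBA/2J-like class it ran from 6.62 to 8.74, with a median of 7.59. The strain just below the threshold was BXD27, at 5.40, and the strain just above it was BXD11, at 6.62. The next strain below BXD27 stood at 3.65, so the widest gap of the panel, 1.75 log2 units, lay between BXD27 and the other members of its class. The other 2 H2-Ea probe sets, not used for the split, had class medians of 4.65 and 5.14, and of 2.97 and 3.00.

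**Figure D1:**
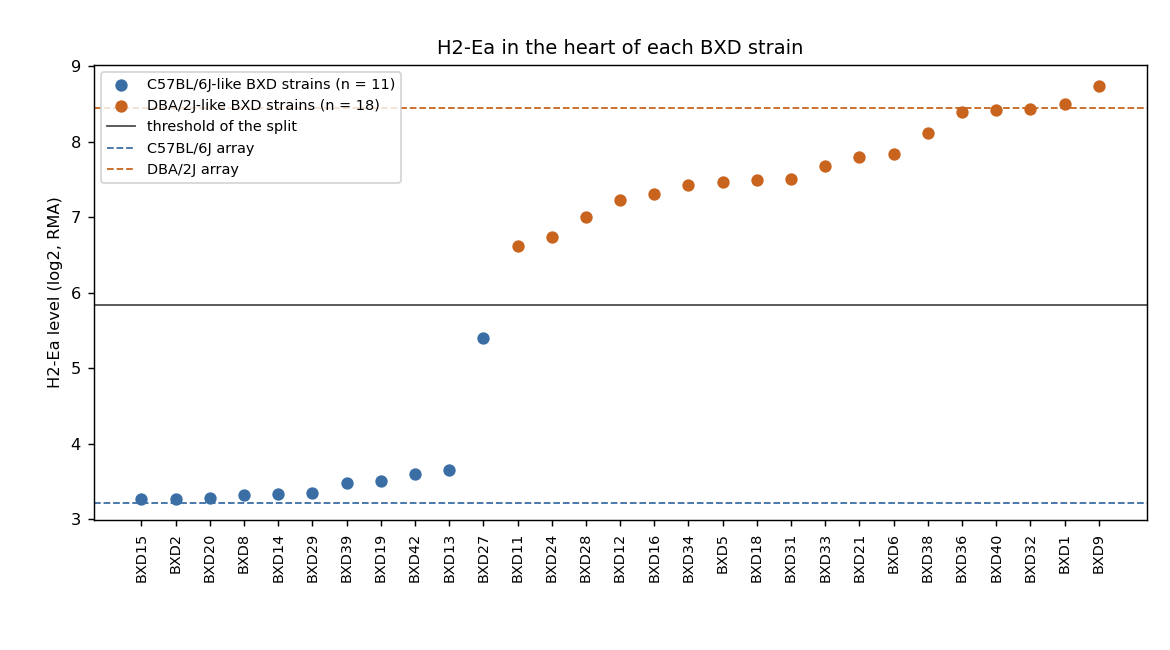
H2-Ea level (log2, RMA) in each of the 29 BXD strains, ordered by level, with the threshold of the split and both parental arrays as lines. BXD27, at 5.40, sits apart from the other 10 C57BL/6J-like strains, which end at 3.65.

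BXD27 went against its class at several transcripts. It read 8.41 and 7.92 on the pair of H2-D1 probe sets that separate the parents, where the other C57BL/6J-like strains did not exceed 4.44 and 4.37. Its Flot1 level (8.19) and its Vps52 level (3.84) were also on the DBA/2J side, while Glo1 (7.97 on the probe set with the widest parental difference) and Cacna1h (4.47) were on the C57BL/6J side. BXD27 had the lowest H2-Ab1 (3.71), H2-Eb1 (4.66) and Cd74 (4.70) of all 29 strains. Its array was also among those with markers of lung and airway, whose part in its values was not tested. Results that BXD27 moves are given below also without it, or with it moved to the other class, as it would be with a threshold of 4.52 in the widest gap.

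The heart muscle list, 15 genes such as myosins and troponins, had a median level of 12.59 in both classes, and the medians of the 9 B cell markers on the array were 3.40 and 3.38. Markers of other organs were present on some arrays: the mean of the 7 lung and airway markers ran from 3.24 to 9.40 in the C57BL/6J-like class and from 3.27 to 7.17 in the DBA/2J-like class. At least 1 list of another organ exceeded its median over arrays by over 2 log2 units in 5 of 11 C57BL/6J-like and 4 of 18 DBA/2J-like strains. The DBA/2J parental array also had lung and airway markers at 9.28, against 3.32 on the C57BL/6J array, so parental differences carry that contrast too. The 3-prime minus 5-prime difference of the Gapdh controls, a sign of RNA quality, was -0.20 ± 0.08 (SD, n = 11) and -0.23 ± 0.08 (SD, n = 18). The titles are numbers of unstated meaning, and 3 of 11 C57BL/6J-like strains against 11 of 18 DBA/2J-like strains had a title number above the middle of the panel. The age label rises with the title number, so it is unbalanced between the classes too, and its part was not tested.

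With 1 probe set per gene, 5 of 7512 genes differed between the classes (0.0666%) by limma with a Benjamini-Hochberg adjusted p under 0.05, and all 5 lie on chromosome 17. Glo1 and Marchf2 were higher in the DBA/2J-like class, 2 genes or 0.0266% of those tested. Flot1, Vps52 and Cacna1h were lower, 3 genes or 0.0399%. On chromosome 17 the calls amounted to 5 of 377 genes (1.33%), and on the other chromosomes to 0 of 7129 (0%). In all 5 the DBA/2J array differed from the C57BL/6J array in the same direction. Fitted separately in strains with low and with high title numbers, the 5 genes kept their sign, with Glo1 at 0.86 and 1.09 and Flot1 at -0.38 and -0.50. These smaller fits ended the calls by limma (adjusted p 0.434 and 0.273 for Glo1, 0.999 and 0.273 for Flot1), except that of Vps52 among high title numbers (0.000441).

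Glo1 encodes glyoxalase 1, which detoxifies methylglyoxal, and the segment around it is known to be duplicated in DBA/2J. On its brightest probe set it read 8.14 to 9.28 (median 8.46) in the C57BL/6J-like class and 8.64 to 10.09 (median 9.48) in the DBA/2J-like class. The difference was 0.95 (SE 0.12), or 1.93-fold, with an adjusted p of 6.27e-05 by limma. The other Glo1 probe sets differed by 0.98 and 1.05, the first being the one with the widest parental difference, 1.46. The overlap came from BXD39, a C57BL/6J-like strain at 9.29 on that probe set, and BXD12, a DBA/2J-like strain at 8.06 there. The other 10 C57BL/6J-like strains stayed at or below 8.18 on that probe set, and the other 17 DBA/2J-like strains at or above 9.00.

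Flot1 encodes flotillin-1, a scaffold protein of membrane microdomains. It ran from 8.19 to 8.88 (median 8.74) in the C57BL/6J-like class and from 7.92 to 8.41 (median 8.30) in the DBA/2J-like class. It was lower in the DBA/2J-like class by -0.44 (SE 0.06), with an adjusted p of 0.000315 by limma. BXD27 alone caused the overlap: without it the classes of Flot1 were disjoint, the only such gene of 7512 (0.0133%), and the difference was -0.49 (SE 0.05). The parental arrays differed by -0.20 only, less than the classes did.

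Vps52 encodes a subunit of the GARP complex, which tethers vesicles that return from endosomes to the Golgi. Its C57BL/6J-like levels were 3.83 to 4.86 (median 4.60) and its DBA/2J-like levels 3.57 to 4.31 (median 3.84). The difference was -0.59 (SE 0.10), with an adjusted p of 0.00246 by limma, and -0.65 (SE 0.09) without BXD27. It was -0.40 among strains with low title numbers (adjusted p 0.999) and -0.93 among those with high ones. The C57BL/6J-like strains BXD13, BXD14 and BXD27 lay among the DBA/2J-like strains, so the classes overlapped.

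Marchf2 encodes a membrane-bound ubiquitin ligase that marks cell-surface and endosomal proteins. It read 7.90 to 8.24 (median 8.10) in the C57BL/6J-like class and 8.11 to 8.62 (median 8.35) in the DBA/2J-like class. It was higher in the latter by 0.30 (SE 0.05), with an adjusted p of 0.00619 by limma. Without arrays carrying markers of another organ the difference was 0.27 and its adjusted p 0.694; the part of those markers in the result was not tested.

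Cacna1h encodes a T-type calcium channel of the heart and nervous system. Its levels were 3.52 to 6.12 (median 4.77) in the C57BL/6J-like class and 3.31 to 5.34 (median 3.50) in the DBA/2J-like class. Only BXD16, BXD40 and BXD9 of the latter class exceeded 3.76. The DBA/2J-like median lies under the expression filter of 3.59, so no fold is given. The class difference of Cacna1h was -1.22 (SE 0.25), equal to the parental difference of -1.22, with an adjusted p of 0.0470 by limma. This call was the least firm: it was kept in 6 of 29 runs that each left out 1 strain, while Glo1, Flot1, Vps52 and Marchf2 were kept in all 29. Its adjusted p was 0.760 without arrays carrying markers of another organ. With BXD27 moved to the DBA/2J-like class it was 0.0581 by limma with 1 probe set per gene.

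**Figure D2:**
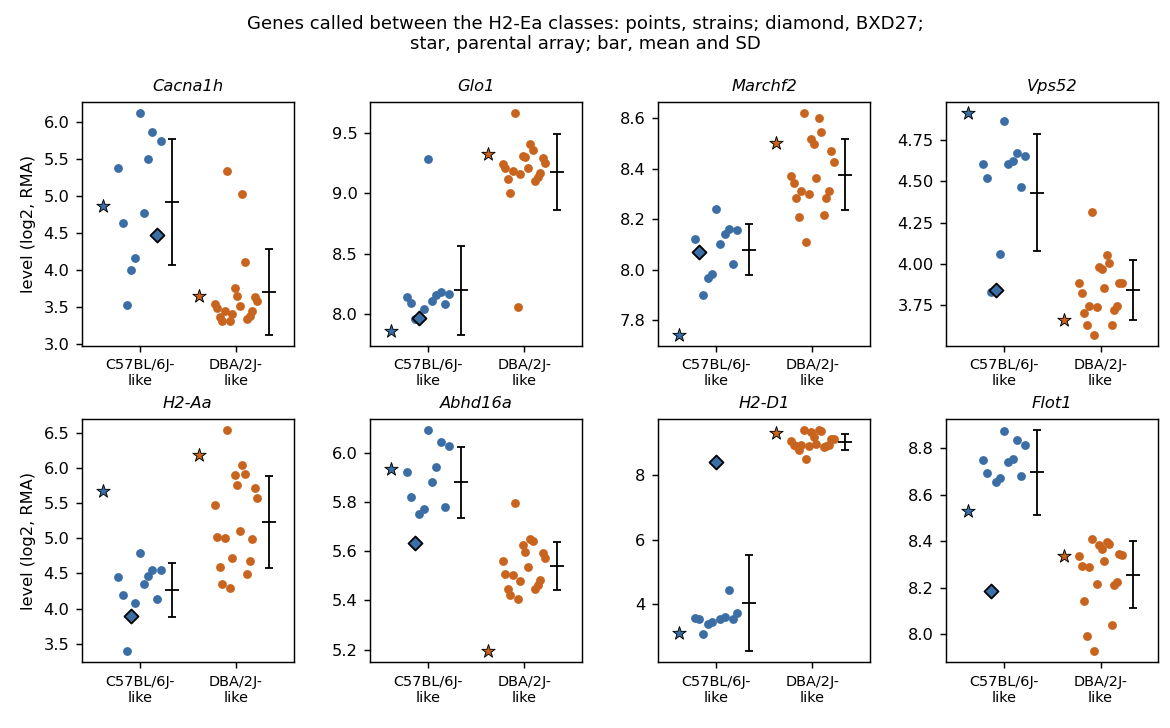
Level (log2, RMA) of 8 genes in each BXD strain by H2-Ea class, with the mean and SD (11 and 18 strains) and the parental arrays. These are the 5 genes called with 1 probe set per gene and the 3 called when each probe set was tested; BXD27 is on the DBA/2J-like side for H2-D1, Flot1 and Vps52.

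When every named probe set was tested on its own, 11 of 10873 were called (0.101%), from 8 genes. All 11 were on chromosome 17 (2.06% of 533 probe sets there). Beside the 5 genes above they came from H2-D1, Abhd16a and H2-Aa. With BXD27 left out, or moved to the DBA/2J-like class, 8 genes were again called, with Ppp1r11 in place of H2-Aa.

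H2-D1 encodes a classical class I heavy chain, which presents peptides from inside the cell to CD8+ T cells. On the probe set with the widest parental difference, 6.22, the C57BL/6J-like strains read 3.06 to 8.41 (median 3.54) and the DBA/2J-like strains 8.50 to 9.41 (median 8.95). The difference was 5.02 (SE 0.33, adjusted p 6.47e-12 by limma), and 5.46 (SE 0.11) without BXD27. A further H2-D1 probe set differed by 4.68 (SE 0.30), from medians of 3.55 to 8.73. On both, the C57BL/6J-like median lies under the expression filter of 3.59, which used means over all arrays. Arrays with higher values thus brought both H2-D1 probe sets into the test. These were the only named probe sets whose classes did not overlap, 2 of 10873 (0.0184%), and without BXD27 Flot1 joined them (3 probe sets, 0.0276%).

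Other H2-D1 probe sets did not follow. The brightest ran from 8.91 to 9.97 in the C57BL/6J-like class and from 9.12 to 10.11 in the DBA/2J-like class, a difference of 0.18 (SE 0.10, adjusted p 0.975 by limma over named probe sets). A probe set shared by H2-D1, H2-K1 and a further locus differed by 4.50 (SE 0.30) without overlap. Class I genes are near-identical copies with many alleles, so it is uncertain which transcript each of these probe sets reads, and no fold in H2-D1 transcript is given. H2-K1 itself, the other classical class I gene, differed by 0.04 (SE 0.15).

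Abhd16a encodes a lipase of phosphatidylserine. On its dimmer probe set it ran from 5.63 to 6.09 in the C57BL/6J-like class and from 5.41 to 5.80 in the DBA/2J-like class, with medians of 5.88 and 5.52. It was lower in the DBA/2J-like class by -0.34 (SE 0.05, adjusted p 0.000173 by limma), while the brighter probe set differed by -0.21 and was not called (adjusted p 0.869). Ppp1r11 encodes an inhibitor of protein phosphatase 1. Its brighter probe set differed by 0.26 (adjusted p 0.561) with all strains and by 0.33 (SE 0.06, adjusted p 0.00735 by limma) without BXD27, which at 9.00 was the highest of the panel.

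Over all 13396 probe sets, named or not, 19 were called (0.142%), among them 5 with no gene name in the annotation used here. Another 2 were shared by H2-D1, H2-K1 and a further locus, and differed by 4.50 and 0.51. The adjusted threshold differs in this larger set, so its named calls need not be those given above. The unnamed probe set with the smallest p read 2.87 to 3.96 in the C57BL/6J-like class and 4.10 to 5.22 in the DBA/2J-like class, and differed by 1.41 (SE 0.12, adjusted p 2.40e-09 by limma) without overlap. Its C57BL/6J-like mean, 3.18, lies under the filter of 3.59, so arrays with higher values brought this probe set into the test. Another differed by -2.30 (SE 0.26), from a median of 6.50 to one of 3.95. The other 3 unnamed probe sets differed by -0.77, -0.44 and 0.44.

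**Figure D3:**
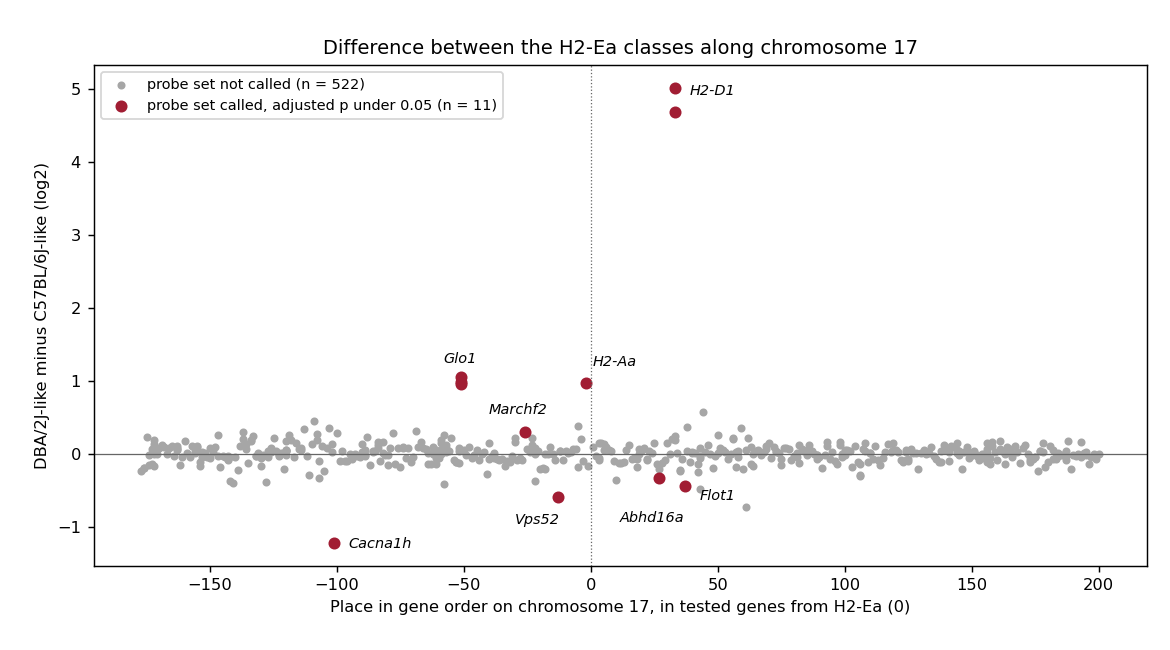
Difference between the classes (DBA/2J-like minus C57BL/6J-like, log2) of each named probe set on chromosome 17, by its place in gene order from H2-Ea (0, negative before it, positive after it). The 11 called probe sets lie between Cacna1h, 101 tested genes before H2-Ea, and Flot1, 37 genes after it.

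Chromosome 17 also ranked first of all chromosomes by its share of genes with a small unadjusted p. At an unadjusted p under 0.05 it held 62 of 377 genes (16.4%), against 326 of 7129 (4.57%) elsewhere and 389 of 7512 (5.18%) over all genes. The next chromosome in rank was chromosome 14, at 6.77%. Of the 62, 45 (72.6%) differed in the same direction as the parents, compared with 147 of 326 (45.1%) on the other chromosomes and 45.8% of all genes. Without BXD27 the same direction was found for 35 of 58 (60.3%) on chromosome 17 and 121 of 337 (35.9%) elsewhere. Without BXD27 the shares with a small p were 15.4% on chromosome 17 and 4.73% elsewhere, and without arrays carrying markers of another organ 15.6% and 4.67%.

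The share was uneven along the chromosome, counted in tested genes from H2-Ea. It was 31.2% (24 of 77 genes) from Scaf8 to Cacna1h, more than 100 genes before H2-Ea, and 18.0% (9 of 50) from Lmf1 to Glo1. From Abcg1 to Marchf2 it was 12% (3 of 25). In the 25 genes just before H2-Ea, from Rab11b to H2-Eb1, it was 24.0% (6 genes), and in the 25 just after it, from Notch4 to Clic1, 4.0% (1 gene). It was 28.0% (7 of 25) from Ddah2 to Ppp1r11, which holds later class III genes and H2-D1 of class I, 14% (7 of 50) from Znrd1 to Tomm6, and 5.0% (5 of 100) beyond. Without BXD27 it was 24.7% (19 genes) from Scaf8 to Cacna1h and 32% (8 genes) from Ddah2 to Ppp1r11, and the other 6 intervals kept their counts. These shares are descriptions, and differences between the intervals were not tested.

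The uncalled genes of chromosome 17 with the smallest p were H2-Aa, BC003965, Nme3 and H2-T24; the last 3 were picked after their values were seen. Nme3, a nucleoside diphosphate kinase, differed by 0.45 (adjusted p 0.0794) and BC003965 by 0.36 (adjusted p 0.0718), and both lie in the interval that ends at Cacna1h. H2-T24, a nonclassical class I gene, differed by 0.57 (SE 0.13, adjusted p 0.0948). H2-Aa differed by 0.97 and is described with the class II genes below. Of heart transcription factors on this chromosome, Nkx2-5 differed by 0.29, with an adjusted p of 0.835.

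Among the 10 tested genes on each side of H2-Ea, 0 of 20 were called with 1 probe set per gene by limma, where 0.0666% of all genes were, and 2, H2-Aa and Psmb9, had an unadjusted p under 0.05 (10% of 20, against 5.18% of all genes). Without BXD27 1 of 20 had such a p. The absolute differences ran from 0.01 (Rxrb, a retinoid receptor) to 0.97 (H2-Aa), with a median of 0.08. The immunoproteasome subunits Psmb9 and Psmb8, which trim peptides for class I, differed by 0.38 (SE 0.16) and 0.20 (SE 0.15). H2-DMa and H2-DMb2, chains of the molecule that loads peptides onto class II, differed by 0.06 and 0.07, and neither was called. On the other side, Notch4, a receptor of the vascular endothelium, differed by 0.09, Tnxb, an extracellular matrix protein, by -0.10 and the complement gene C4b by -0.36 (SE 0.25). Tnxb and C4b were 1.22 and 1.54 higher on the DBA/2J than on the C57BL/6J array, a contrast that the classes did not show.

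The parental arrays allow each strain to be placed on a parental side at transcripts where they differ by at least 1 log2 unit. H2-D1, on its probe set with the widest parental difference, matched the H2-Ea class in 28 of 29 strains, all but BXD27. Glo1, chosen likewise, matched in 27 strains, Vps52 in 25 and Cacna1h in 24. On other chromosomes, 515 probe sets with such parents matched in 5 to 21 strains, with a median of 14. On chromosome 17 the 27 probe sets matched in 10 to 28, with a median of 16.

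At Cacna1h, Glo1, Vps52, H2-Ea and H2-D1, in chromosome order, 21 of 29 strains were on 1 side throughout, 6 on the C57BL/6J side and 15 on the DBA/2J side. The other 8 strains changed side. BXD39 was on the DBA/2J side at Cacna1h and Glo1 and on the C57BL/6J side from Vps52 onwards. BXD27 was on the C57BL/6J side at Cacna1h, Glo1 and H2-Ea and on the DBA/2J side at Vps52 and H2-D1, which flank H2-Ea. BXD16 and BXD15 differed from their class at Cacna1h only, BXD12 at Glo1 only and BXD14 at Vps52 only. BXD13 and BXD40 differed at Cacna1h and Vps52 but not at Glo1 between them. No genotypes were used, so a side is a transcript level and not an allele.

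**Figure D4:**
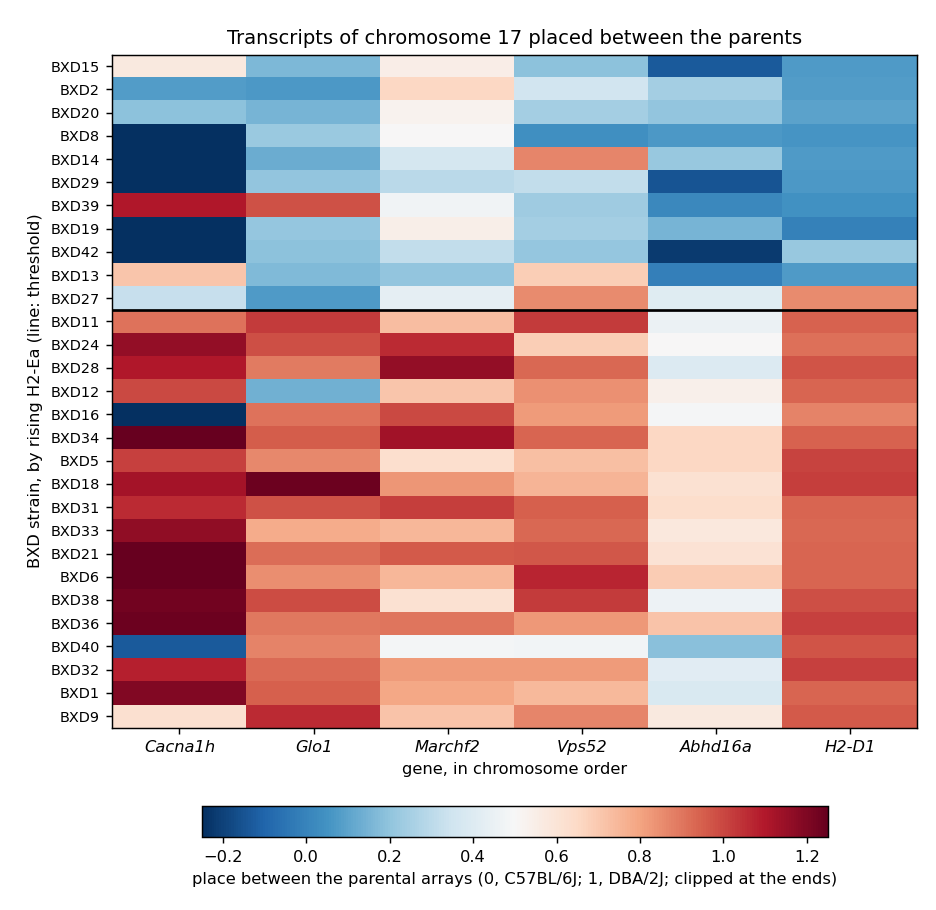
Level of 6 chromosome 17 transcripts in each BXD strain, placed between the C57BL/6J array (0, blue) and the DBA/2J array (1, red), with strains ordered by H2-Ea. H2-D1 changes from blue to red at BXD27, just below the threshold line, while BXD39 is red at Cacna1h and Glo1 and BXD12 is blue at Glo1.

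Large parental differences on chromosome 17 were often not matched by the panel. The heat shock gene Hspa1b was 1.30 higher on the DBA/2J array, and 0 of 29 strains lay on the DBA/2J side. Man2a1, a Golgi mannosidase, was 1.42 higher there, and 1 of 29 strains was on that side. The macrophage gene Adgre1 and the hypoxia factor Epas1 were 1.03 and 1.13 lower on the DBA/2J array, and 28 of 29 strains were on the DBA/2J side of both. Thbs2, Zfp758, Tnxb, C4b, Gnmt, Ltbp1, Crim1, Pkdcc and Lrpprc matched the H2-Ea class in 12 to 16 strains. The lung and airway markers of the DBA/2J array, given above, are a further difference between the parental arrays, and their part in these values was not tested.

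H2-Aa was the class II gene with the largest difference. It read 3.39 to 4.79 (median 4.34) in the C57BL/6J-like class and 4.30 to 6.54 (median 5.06) in the DBA/2J-like class. The C57BL/6J array, at 5.67, lay above every C57BL/6J-like strain, and the DBA/2J array read 6.18. Whether the H2-Aa probe set reads both parental alleles alike was not tested. The class difference was 0.97 (SE 0.21), with an adjusted p of 0.0661 by limma over genes, where it was not called, and 0.0494 over named probe sets. Without BXD27 it was 0.94 with an adjusted p of 0.137, and over all alternatives the adjusted p ran from 0.0264 to 0.999. Its partner H2-Ab1 differed by -0.10 (SE 0.28), H2-Eb1 by -0.16 (SE 0.24) and the invariant chain Cd74 by 0.12 (SE 0.27). Of the 6 class II genes tested, 4 were higher and 2 lower, 0 were called by limma with 1 probe set per gene, and 1, H2-Aa, had an unadjusted p under 0.05 (16.7%, against 5.18% of all genes). The median absolute difference was 0.11, against 0.06 over all genes; without BXD27 3 of the 6 were higher.

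The upstream sequences of H2-Aa and H2-Eb1 are shown because these are the nearest tested genes before H2-Ea on the chromosome, and their transcripts varied with it in the DBA/2J-like class. They are the 250 bases before each start in RefSeq on GRCm38.p6, 5′ to 3′ on the gene's strand, at chr17:34287824-34288073 (minus strand) and chr17:34305617-34305866 (plus strand). Capitals mark CTGATTGG, the core of the Y box of class II promoters.
H2-Aa: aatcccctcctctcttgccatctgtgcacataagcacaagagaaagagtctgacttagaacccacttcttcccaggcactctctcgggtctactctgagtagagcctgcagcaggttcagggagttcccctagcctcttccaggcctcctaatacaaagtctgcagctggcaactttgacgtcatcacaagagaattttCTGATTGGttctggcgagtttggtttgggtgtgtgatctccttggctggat
H2-Eb1: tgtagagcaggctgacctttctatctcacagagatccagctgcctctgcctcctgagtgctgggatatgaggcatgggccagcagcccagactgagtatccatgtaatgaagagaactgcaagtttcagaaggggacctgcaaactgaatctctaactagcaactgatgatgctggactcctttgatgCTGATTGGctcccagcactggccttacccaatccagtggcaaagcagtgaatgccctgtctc

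CTGATTGG, or CCAATCAG on the other strand, was found in 1258 of 32851 such upstream windows (3.83%), and in 4 of 8 listed class II genes with a window: H2-Aa, H2-Eb1, H2-Eb2 and H2-Oa. H2-Ab1 and Cd74, whose transcripts also varied with H2-Ea in the DBA/2J-like class, were not among these matches. In H2-Aa the motif begins 51 bases, and in H2-Eb1 62 bases, before the start. A match is a description of letters and was not set against binding data. The reference is C57BL/6J sequence, so DBA/2J alleles are not shown.

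Within the DBA/2J-like class, strains with more H2-Ea had more of the other class II transcripts. Over its 18 strains, Pearson's r with H2-Ea was 0.915 for H2-Aa (Spearman's rho 0.893), 0.918 for H2-Ab1 (rho 0.895), 0.872 for H2-Eb1 (rho 0.833) and 0.947 for Cd74 (rho 0.917). These are descriptions with no test, since H2-Ea levels chose the class. Leaving out the pair of strains farthest from the median H2-Ea gave r of 0.880, 0.898, 0.829 and 0.936. Among strains with low (7 strains) and high (11 strains) title numbers, r was at least 0.813 for all 4 genes, and without the 4 strains with markers of another organ it was at least 0.858. In bulk heart RNA, more cells that make class II cannot be told apart from more class II RNA per cell, and all values share an array per strain.

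In the C57BL/6J-like class H2-Ea had little range, 3.26 to 3.65 in 10 of 11 strains and 3.21 on the C57BL/6J array, so whether such a relation holds there cannot be read. Over its 11 strains r was -0.164 for H2-Aa, -0.603 for H2-Ab1, -0.517 for H2-Eb1 and -0.638 for Cd74. These values rested on BXD27: without it r was 0.679, 0.209, 0.382 and 0.280. H2-Eb1 spanned 4.66 to 7.23 in this class and 4.93 to 6.87 in the DBA/2J-like class, while H2-Ea stayed at or below 3.65 in all C57BL/6J-like strains but BXD27. BXD27, lowest in H2-Ab1, H2-Eb1 and Cd74 and second lowest in H2-Aa (3.90), lay next to the lower end of the DBA/2J-like strains, below BXD11, in the plots of all 4 genes against H2-Ea.

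**Figure D5:**
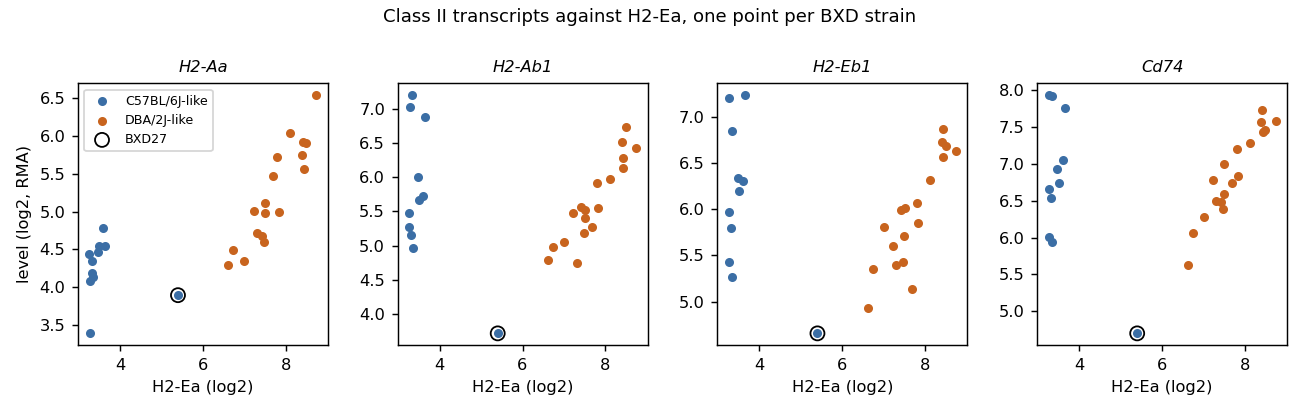
Levels (log2, RMA) of H2-Aa, H2-Ab1, H2-Eb1 and Cd74 against H2-Ea, 1 point per BXD strain. The 18 DBA/2J-like strains rise together with H2-Ea (r from 0.872 to 0.947), the C57BL/6J-like strains form a column at low H2-Ea, and BXD27 (circled) lies between them at the bottom.

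On the lists of other MHC genes, 0 of 6 tested class I members and 0 of 31 tested class III members were called by limma with 1 probe set per gene. Of all genes, 0.0666% were. The class III list left out Abhd16a, which lies 27 tested genes after H2-Ea. It also held Creb3l1, whose place in the region was not checked. Unadjusted p-values under 0.05, which 5.18% of all genes had, were reached by H2-T24 on the class I list and by Ddx39b (0.21) and Clic1 (0.14) on the class III list. Abhd16a had an unadjusted p of 0.00657 on its brighter probe set, by limma over named probe sets. H2-D1, tested here on its brightest probe set, was called on the probe sets with differences of 4.68 and 5.02. In the extended region near class II, 1 of 13 genes was called, Vps52, and Daxx (-0.21) and Zbtb22 (-0.19) were the others under 0.05. Of the peptide loading genes, 0 of 9 were called, and tapasin (Tapbp), which holds class I for loading, differed by -0.22 (SE 0.08, adjusted p 0.898). Median absolute differences over these lists were 0.10 for class I, 0.08 for class III, 0.09 for the extended region and 0.09 for peptide loading, against 0.06 over all genes tested.

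Genes that respond to interferon gamma, which induces class II, lie mostly on other chromosomes. Of the 13 tested, 0 were called by limma (0.0666% of all genes), and 1, the chemokine Cxcl9 (0.34, SE 0.16), had an unadjusted p under 0.05 (7.69%, against 5.18% of all genes). All 13 differences were above 0, with a median of 0.27, against a median absolute difference of 0.06 over all genes tested. These genes spread widely between strains, with an SE of 0.11 (Irf9) to 0.32 (Tgtp1). The 13 may also vary together, which was not tested. Without arrays carrying markers of another organ the median was 0.04 and 9 of 13 were above 0, and among strains with high title numbers 0.08 and 9 of 13. Without BXD27 12 of 13 were above 0, and 0 had an unadjusted p under 0.05. The part of those arrays in the result was not tested.

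Of cell markers, 0 of 10 macrophage, 0 of 6 dendritic, 0 of 3 B cell and 0 of 4 T and NK cell markers were called by limma, where 0.0666% of all genes were. Cd83, an activation marker of dendritic cells, was the only one of these with an unadjusted p under 0.05 (-0.26, adjusted p 0.599), which 5.18% of all genes had. Averaged over each list, the macrophage mean ran from 4.82 to 5.34 and from 4.55 to 5.49 in the classes, and the dendritic mean from 3.83 to 4.07 and from 3.83 to 4.10. BXD14, a C57BL/6J-like strain, had T and NK cell markers at 4.59, where the highest DBA/2J-like strain had 3.42. BXD14 also had the thymus markers at 5.39, above a median of 3.55 in its class and a highest value of 3.69 in the DBA/2J-like class.

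On the other chromosomes 0 of 7129 genes were called by limma, and 326 had an unadjusted p under 0.05, where 356.45 would be expected with no difference. The smallest adjusted p was 0.0778, for Cilp2, an extracellular matrix protein, on chromosome 8. It read 3.66 to 3.94 in the C57BL/6J-like class and 3.34 to 3.89 in the DBA/2J-like class, and differed by -0.22 (SE 0.05). Its DBA/2J-like median, 3.57, lies under the expression filter, which used means over all arrays. Arrays with higher values thus brought Cilp2 into the test, and no fold is given. Nr0b2, an orphan nuclear receptor that represses transcription, differed by 0.36 (adjusted p 0.174) and Car2, carbonic anhydrase 2, by -0.48 (adjusted p 0.205). Tbx5, a transcription factor of heart development, differed by -0.43 (SE 0.12, adjusted p 0.376). Cilp2 passed the threshold without BXD21 (adjusted p 0.0135) or without BXD24 (0.0484), and Car2 without BXD28 (0.0256).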

How the data were processed

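The authors deposited log2 expression values per probe set, made with GCOS and RMA (no version stated) per the submitters' processing notes. RMA normalises by quantiles, so arrays share a distribution. Array medians ran from 3.97 to 4.07, and no scanner files were used here, so signal over background is unknown. Total RNA was reverse transcribed from oligo-dT, per the labels' protocols.

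Of 22416 probe sets, 17783 had 1 gene symbol, 284 several and 4349 none. The brightest probe set stood for a gene, genes above the 40th percentile of means (3.59) were kept, and all H2-Ea probe sets were left out. Chromosome and gene order came from the RefSeq table (GRCm38.p6); 6 tested genes had no chromosome. The files name no genome build. The test was limma's (version 3.58.1, R 4.3.3) lmFit and eBayes with no covariates, on the 29 strains. Correlations with H2-Ea are descriptions, computed with Python (version 3.11.15, numpy 2.4.6, scipy 1.17.1, matplotlib 3.10.9).

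On simulated data for this comparison (7512 genes, 50 changed at each size) limma recovered 42%, 86%, 98% and 98% of changes of 0.25, 0.5, 1 and 2 log2 units, with 14 false calls. The simulation held many more changes than the genes called here. That eases the adjusted threshold, so recovery in the real comparison may be lower. The age label rises from 16 to 113 weeks over the arrays, against 16 in the protocol, and was not used. The strains, lists and tests were chosen with earlier results of these data known. Named genes were the called genes, the 10 tested genes on each side of H2-Ea, tested class II genes and chromosome 17 genes whose parents differ by at least 1; others were chosen after their values were seen. Alternatives covered the filter, gene level, array medians, limma's trend and robust settings, the Gapdh covariate, low and high title numbers, other-organ arrays, the threshold, mutant arrays and each strain in turn. The runs of every named probe set without or with BXD27 moved, and those of the correlations, were added after the data were seen.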

Additional observations from a re-analysis of the deposited data

How the results depend on the processing

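With 1 probe set per gene and all strains, 5 genes were called, 5 on chromosome 17 and 0 elsewhere. The count was 3 (all on chromosome 17) with a filter at the 60th percentile and 3 without arrays carrying markers of another organ, both from the same 5 genes. It was 9 with the mean of a gene's probe sets (8 on chromosome 17 and 1 elsewhere, Cilp2) and 8, all on chromosome 17, with every named probe set, also without BXD27 or with BXD27 moved. Among strains with low title numbers it was 0 and among those with high ones 1. Leaving out each strain in turn gave 4 to 7 genes, 4 to 7 of them on chromosome 17 and 0 to 1 elsewhere (1 without BXD21, BXD24 or BXD28).

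Among strains with low and with high title numbers the differences were 0.86 and 1.09 for Glo1, -0.38 and -0.50 for Flot1, -0.40 and -0.93 for Vps52, 0.29 and 0.26 for Marchf2 and -1.27 and -1.07 for Cacna1h. Each of these fits holds fewer strains, and apart from Vps52 at high title numbers none of these was called. No called gene changed sign under any alternative run. With 29 strains, 1 array each, 42% of differences of 0.25 log2 units were recovered in the self-test. The simulation held many more changes than the genes called here, which eases the adjusted threshold, so fewer may be recovered here. Differences of that size, and larger ones, may thus be missed. Among uncalled genes, H2-Aa differed by 0.97 (adjusted p 0.0661 by limma) and H2-T24 by 0.57 (adjusted p 0.0948). Levels near 3 have little room below them. No paired analysis was possible because each strain belongs to only 1 class.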
